A study of Sus scrofa with 24 samples.

Results

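Molecular chaperones were examined in the LDM (longissimus dorsi, which runs along the spine) of 24 pig fetuses at 63 dpc (days post conception). The chaperone genes were chosen by symbol, without any measured value: the J-domain proteins (DNAJA, DNAJB and DNAJC), the HSP70 proteins numbered HSPA apart from HSPA5, HSPH1, the HSP90 proteins, the mitochondrial chaperonin HSPD1 with HSPE1, and the subunits TCP1 and CCT2 to CCT8 of the cytosolic chaperonin. The array carried 60 such genes among 13755 gene symbols, and 49 of them were bright enough to be used, among 9710 genes of all kinds. All fetuses were of an F2 generation that crossed the breeds German Landrace and Pietrain, and each had 1 Affymetrix Porcine Snowball array. The study compared fetuses of high and low weight, chosen by its methods as extremes within litters. It lists a weight group, dam and sex for each fetus, but groups were taken here from the labels of the deposited samples alone, which carry no weight group, so no groups were compared. The spread over the 24 fetuses, described here, includes any differences between weight groups, sexes and litters, and how much of it they make up was not computed. Littermates are not independent of one another, and p-values over fetuses take no account of this.

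Chaperones hold unfolded proteins and help them reach their folded form. HSP70 proteins bind short stretches of a client in cycles of ATP use, J-domain proteins deliver clients to them and start the cycle, and nucleotide exchange factors such as HSPH1 and the BAG proteins end it. HSP90 finishes the folding of kinases, receptors and, with helper proteins known from nematode and zebrafish muscle, myosin. The cytosolic chaperonin is a double ring of different subunits that encloses actin and tubulin, while HSPD1 and its lid HSPE1 form a similar chamber in mitochondria. Part of this set is raised by heat shock factors when unfolded protein accumulates, and another part serves folding in growing cells without stress.

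Levels are log2 values after the authors' normalization, and a difference of 1 is a doubling of signal. A gene was represented by its brightest probe set and used when that probe set lay above the median of its array in at least 20 of the 24 fetuses. The 11 genes that did not reach this were DNAJB1, DNAJB8, DNAJB13, DNAJB14, DNAJC5B, DNAJC5G, DNAJC6, DNAJC12, DNAJC22, DNAJC28 and HSPA4L. Their median levels ran from 3.20 to 6.79 log2, against array medians of 6.61 to 6.73. DNAJB1, a main heat-inducible J-domain protein, was above the array median in 0 fetuses, with a highest value of 4.23 in fetus 283, so HSPH1 stood in for it as the stress-inducible reference gene. The genes HSPA1A, HSPA1B, HSPA4, HSPA9 and HSP90B1 were not analysed here. Of the 49 genes used, 12 had a median above 9.71, the level of the brightest class of background controls, and 13.2% of all 9710 genes did. The others can hold more unspecific signal.

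The chaperones varied between fetuses about as widely as genes in general. The spread of a gene is given as its span, the 90th minus the 10th percentile over fetuses. The median span was 0.43 log2 (1.34-fold) for the 49 chaperones and 0.42 log2 (1.34-fold) for all 9710 genes, and 25 of the 49 chaperones lay above the latter. A span of 1.5-fold or more was found for 12 of 49 chaperones and for 19.4% of all genes. With the signal of background controls (probe sets that match no transcript) regressed out of every gene, these were 3 of 49 chaperones and 9.54% of all genes. DNAJB11 (0.59 log2) and HSPD1 (0.59 log2) lay just inside this limit, and DNAJB9 (0.58 log2) and CCT6A (0.58 log2) just outside it. At the wide end were the J-domain proteins DNAJB4 at 1.35, DNAJC13 at 0.85 and DNAJC9 at 0.84 log2 and the HSP70 relative HSPA13 at 0.98 log2. At the narrow end were HSP90AB1 at 0.16 and HSPA8 at 0.24 log2, the constitutive HSP90 and HSP70 of the cytosol.

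**Figure D1:**
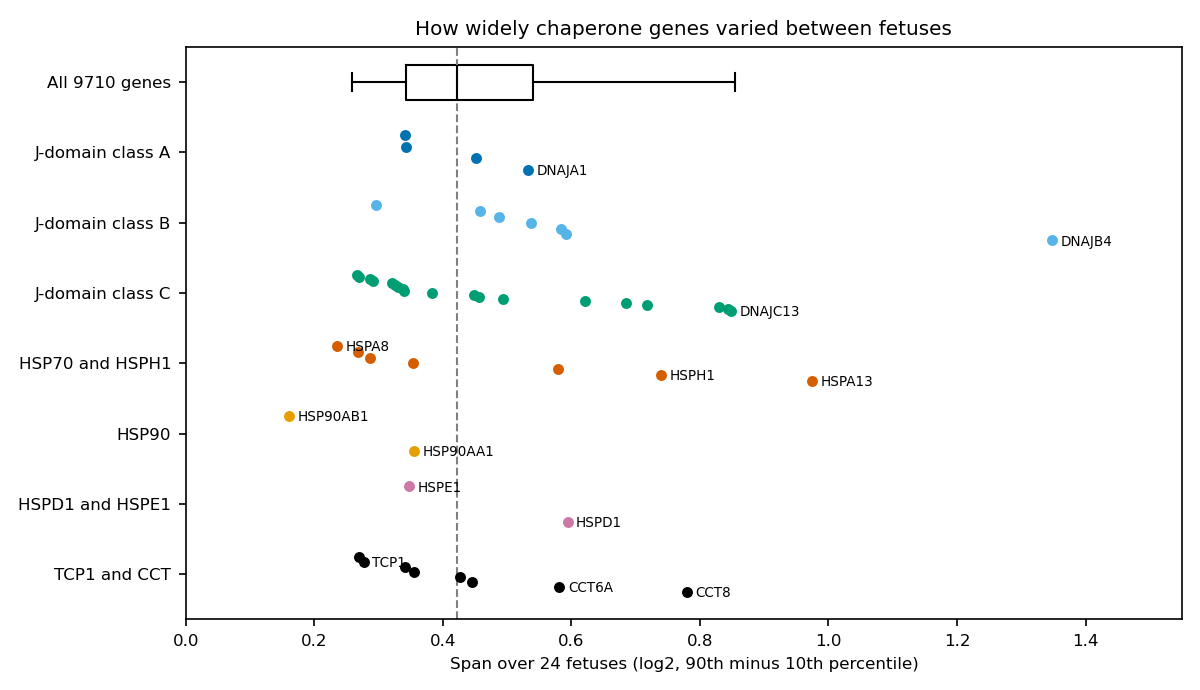
Span of each chaperone gene over 24 fetuses (x axis, log2) by role class (rows), 1 point per gene, with selected genes named. The top row is a box of all 9710 genes (box, quartiles; whiskers, 5th and 95th percentiles) and the dashed line is their median of 0.42; DNAJB4 at 1.35 lies farthest right and HSP90AB1 at 0.16 farthest left.

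Much of this spread ran along 1 axis that the whole transcriptome shared. The first principal component of all 9710 genes held 39.7% of their variance, with fetus 338 at its low end (score -27.5) and fetus 313 at its high end (score 21.2). The mean signal of 39 background controls, which match no transcript, moved with it (r = 0.767 over 24 fetuses) and ran from 7.30 log2 in fetus 338 to 7.94 log2 in fetus 313. RNA quality was not among the values used here, and the part of the background signal in the component was not tested. The relation of the component to weight group, sex and litter was not computed either. Of the 49 chaperones, 12 had r under -0.8 with the component, against 10.8% of all genes: DNAJA1, DNAJB4, DNAJC2, DNAJC9, DNAJC10, DNAJC13, DNAJC21, HSPA13, HSPH1, HSPD1, CCT2 and CCT6A. With the background controls regressed out, r was under -0.8 for 4 of 49 chaperones and 3.82% of all genes. At the other end, DNAJC5 and DNAJC16 (2 of 49) had r over 0.8, against 2.79% of all genes. The median r was -0.110 for the chaperones and 0.266 for all genes. These correlations are a description, since every gene entered the component.

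The fit to the background controls divided the chaperones in a similar way. With limma over all 9710 genes and Benjamini-Hochberg adjustment, 17 of 49 chaperones fell as the control signal rose, against 22.7% of all genes, and 5 of 49 rose with it, against 20.8%. The falling group held the 12 genes of the component's low end together with DNAJA2, DNAJB9, DNAJC7, DNAJC8 and DNAJC19, and the rising group was DNAJB11, DNAJC5, DNAJC16, HSPA12A and HSPA12B. Without fetuses 338 and 313, which lie at the ends of the component, the counts were 11 and 0. The shares of all genes called without these fetuses are not given here, so these counts are not set against genes in general. In bulk muscle, fewer cells of a type and less RNA per cell cannot be told apart, which applies to every level given here.

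**Figure D2:**
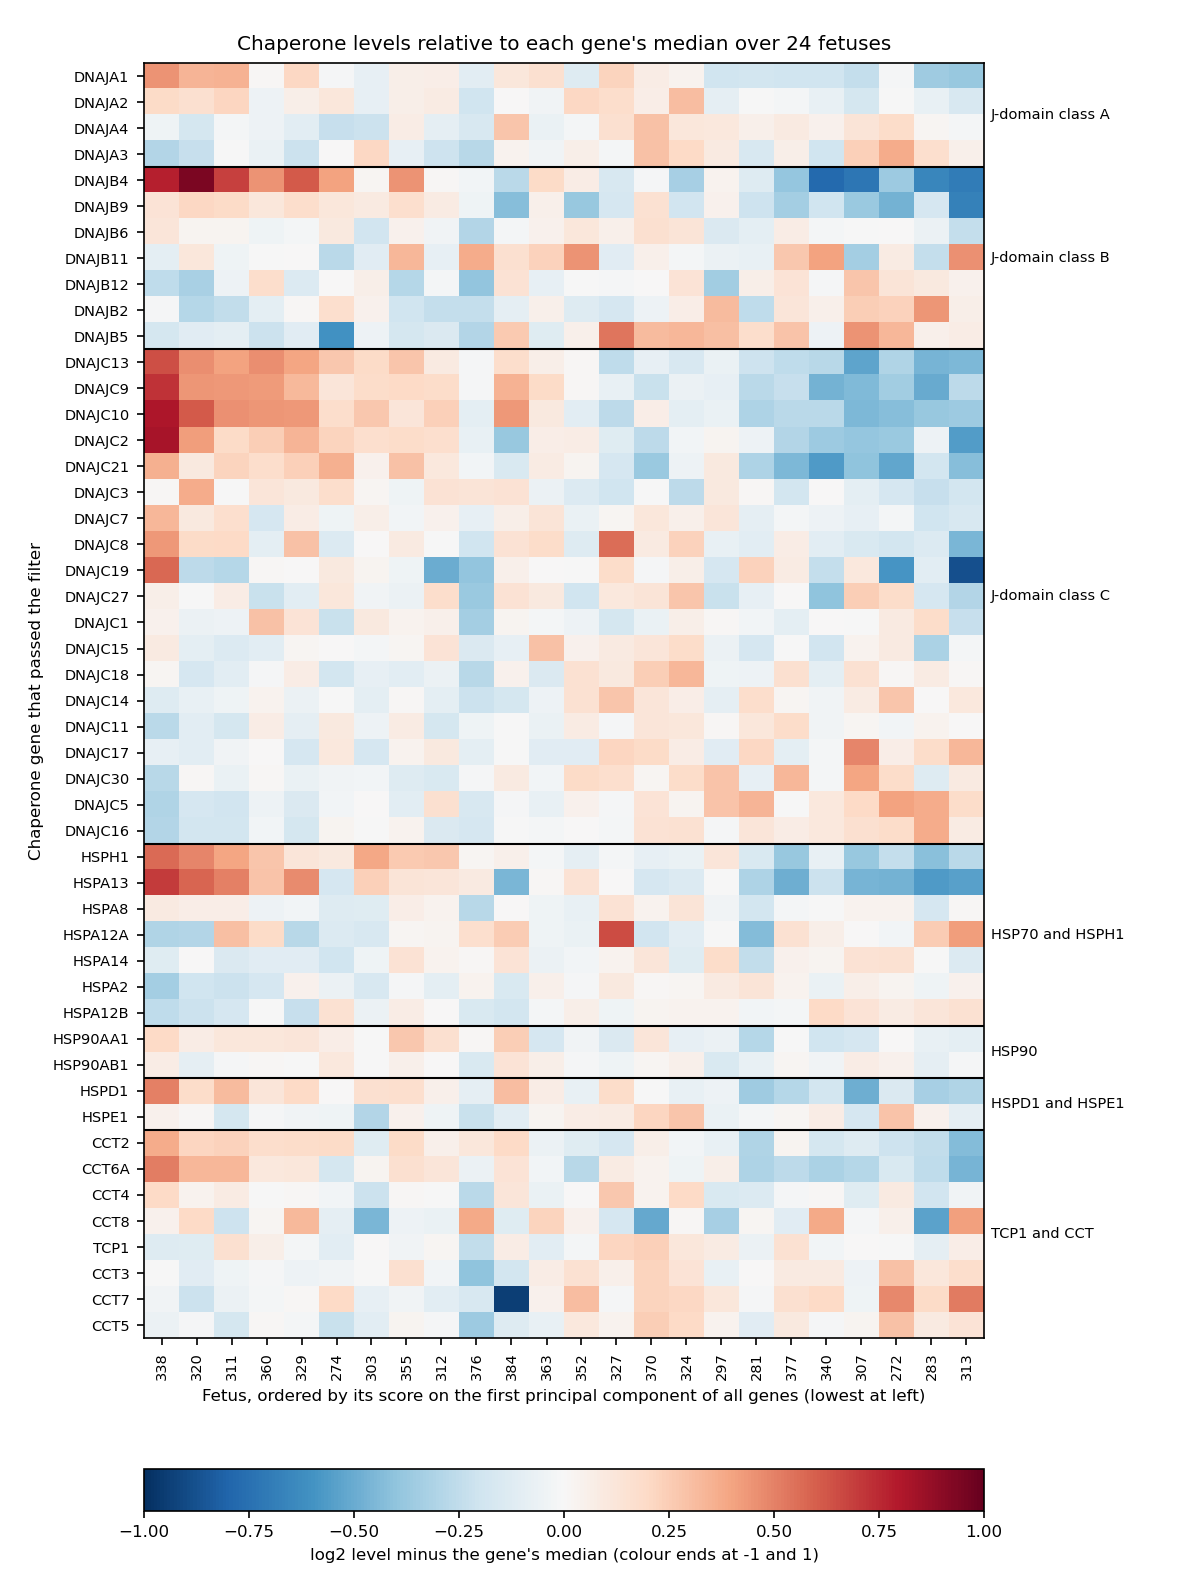
Levels of the 49 chaperone genes (rows, by role class) in 24 fetuses (columns, ordered by score on the first component, lowest at left), as log2 level minus the gene's median over fetuses. Red is above and blue below the median; genes such as DNAJB4, DNAJC13, HSPH1, HSPA13 and CCT6A run from red at fetus 338 to blue at fetus 313, while HSP90AB1 and HSPA8 stay pale across all columns.

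**Figure D3:**
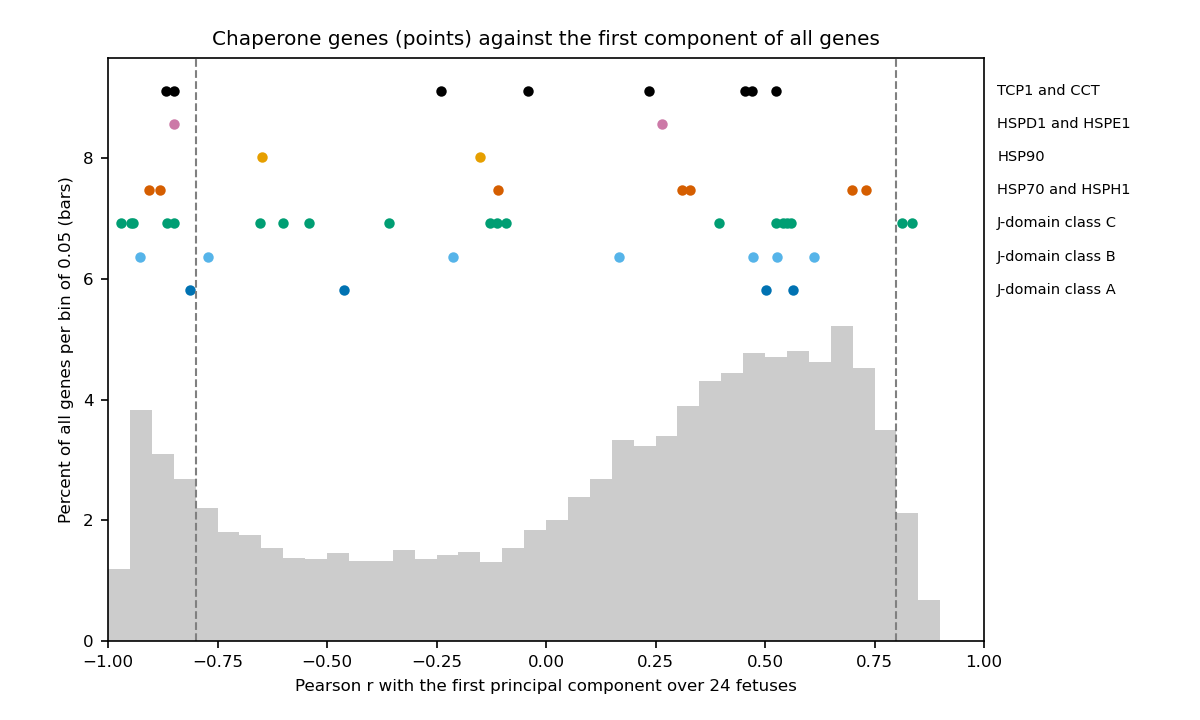
Pearson r of each chaperone gene with the first component over 24 fetuses (points, 1 row per role class; height within the upper band has no scale) above the distribution of the same r for all 9710 genes (bars, percent per bin of 0.05). Dashed lines mark -0.8 and 0.8; 12 chaperones lie left of the first and 2 right of the second.

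The class A J-domain proteins, built like bacterial DnaJ, divided along this axis. DNAJA1, a farnesylated partner of the constitutive HSP70, ran from 9.19 log2 in fetus 313 through a median of 9.57 to 10.02 in fetus 338. Its r with the component was -0.814. DNAJA3, the mitochondrial member, went the other way, from 7.68 log2 in fetus 338 through 7.97 to 8.35 in fetus 272 (r = 0.564). DNAJA4 had a span of 0.34 log2, as did DNAJA2, the narrowest of the class, and their r with the component was 0.503 and -0.460.

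DNAJB4 varied more than any other of the 49 chaperones. This class B protein, a heat-inducible partner of HSP70 whose loss causes a myopathy in human patients, measured 7.31 log2 in fetus 340, 8.09 at the median and 9.03 in fetus 320. The spread from the 10th to the 90th percentile was 2.54-fold, and the fetuses at the low end of the component held the high values (r = -0.927). Its fall with the background controls passed the test (r = -0.749, limma adjusted p = 8.64e-05), and with the control signal regressed out its span was 0.66 log2, from 1.35.

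The remaining class B proteins did not move together. DNAJB9 and DNAJB11 both assist HSPA5 in the endoplasmic reticulum, and both are known targets of the unfolded protein response. DNAJB9 ran from 7.57 log2 in fetus 313 through 8.25 to 8.46 in fetus 320. DNAJB11 ran from 9.15 log2 in fetus 307 through 9.49 to 9.94 in fetus 313, the fetus in which DNAJB9 was lowest. DNAJB9 fell with the background control signal (r = -0.716) and DNAJB11 rose with it (r = 0.491). For DNAJB11 a second probe set gave another pattern (r = -0.219 between the probe sets), and the mean of both had a span of 0.30 log2, so its values rest on the choice of probe set. DNAJB6, which suppresses protein aggregation and is mutated in a human limb-girdle muscular dystrophy, was the narrowest of the class, with 7.77 log2 in fetus 376, 8.07 at the median and 8.23 in fetus 370. The median correlation among the 7 class B genes was -0.107, against 0.0247 for pairs of all genes.

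Class C gathers J-domain proteins with very different tasks, and it held both ends of the component. DNAJC13, which acts on endosomes, measured 7.30 log2 in fetus 307, 7.83 at the median and 8.47 in fetus 338. DNAJC9, a histone chaperone, measured 7.0 log2 in fetus 283, 7.51 at the median and 8.23 in fetus 338. DNAJC10, a disulfide reductase of the endoplasmic reticulum, measured 8.37 log2 in fetus 307, 8.82 at the median and 9.63 in fetus 338. The RNA levels for these proteins of endosome, nucleus and reticulum had nearly the same pattern over the fetuses. The r was 0.956 between DNAJC10 and DNAJC13, 0.951 between DNAJC9 and DNAJC13 and 0.949 between DNAJC9 and DNAJC10. All 3 stayed at 0.930 or more without the 2 most extreme fetuses of the first gene of each pair. Each gene also lay close to the component itself (r = -0.942 for DNAJC10, -0.971 for DNAJC13 and -0.949 for DNAJC9). Among all genes, 10.8% had r under -0.8 with it. A second, dimmer probe set of DNAJC10 followed the first (r = 0.820), whereas that of DNAJC13 did not (r = -0.239). Only the brightest probe set of DNAJC13 is described here.

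DNAJC2 and DNAJC21 serve ribosomes, DNAJC2 at the site where new chains emerge and DNAJC21 in the maturation of the large subunit. DNAJC2 ran from 6.55 log2 in fetus 313 through 7.11 to 7.94 in fetus 338, and DNAJC21 from 7.01 in fetus 340 through 7.58 to 7.94 in the same fetus 338. Both had high values at the low end of the component (r = -0.866 and -0.849). By its brightest probe set HSPA14, the HSP70 relative that forms a complex with DNAJC2 at the ribosome in human cells, did not follow it. Its span was 0.29 log2 and its r with DNAJC2 was -0.392 (rho = -0.422, r = -0.511 without fetuses 338 and 313). This pair was picked after its values were seen and was not tested. A second passing probe set of HSPA14 was nearly as bright (median 7.17 against 7.27 log2). It had r = 0.152 with the brightest and a span of 0.55 log2, so the values of HSPA14 rest on the choice of probe set.

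DNAJC5 and DNAJC16 ran the other way. DNAJC5, the cysteine string protein of secretory vesicles, measured 9.59 log2 in fetus 338, 9.89 at the median and 10.30 in fetus 272. DNAJC16, a membrane protein of the endoplasmic reticulum, measured 7.88 log2 in fetus 338, 8.17 at the median and 8.54 in fetus 283. Fetus 338 was thus the lowest of the 24 for both. It was the highest for 13 of the 49 chaperones (26.5%) and for 13.3% of all genes. DNAJC19, part of the motor that pulls proteins into mitochondria, stood apart from both patterns, with 6.16 log2 in fetus 313, 7.03 at the median and 7.61 in fetus 338 but an r with the component of -0.357. It passed the brightness limit in exactly 20 fetuses. DNAJC7, an adaptor between HSP70 and HSP90, was the narrowest of the class at 0.27 log2.

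The HSP70 proteins differed in spread, from spans of 0.24 log2 for HSPA8, 0.27 for HSPA2 and 0.29 for HSPA14 to 0.98 log2 for HSPA13. HSPA8, the cytosolic HSP70 present in every cell, measured 12.43 log2 in fetus 376, 12.71 at the median and 12.85 in fetus 327. HSPA13, a truncated HSP70 of the endoplasmic reticulum, measured 7.74 log2 in fetus 283, 8.31 at the median and 9.01 in fetus 338, a span of 1.97-fold. HSPH1, the exchange factor, measured 7.71 log2 in fetus 283, 8.13 at the median and 8.70 in fetus 338. The fetuses that were high for HSPA13 were mostly high for HSPH1 (r = 0.889, rho = 0.877). Permutation p was 1e-05 for both, the smallest that 100000 permutations can give, and limma adjusted p was 2.06e-08 over all genes. By r with HSPH1, HSPA13 was at rank 113 of 9709 genes, and 20.6% of all genes rose with HSPH1. Both genes lay at the low end of the component (r = -0.882 for HSPA13 and -0.907 for HSPH1). HSPA12A, a divergent relative, ran from 6.77 log2 in fetus 281 through 7.2 to 7.85 in fetus 327, and HSPA12B, known from endothelial cells, from 7.75 in fetus 338 through 8.0 to 8.20 in fetus 340.

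HSPA8 had few companions. Each of the 5 reference genes (HSPD1, HSPA8, HSP90AA1, TCP1 and HSPH1) was fitted with limma against all 9709 other genes, which gave 240 relations with chaperones. With HSPA8 1 of 48 chaperones rose, against 0.216% of all genes, and 0 of 48 fell, against 0.0103%. Unadjusted p was under 0.05 for 15 of 48 chaperones and 10.8% of all genes. The gene that rose was CCT4, a subunit of the cytosolic chaperonin, which had the highest r with HSPA8 among all 9709 genes (r = 0.835, rho = 0.813, permutation p = 1e-05 for both, limma adjusted p = 0.0251). CCT4 measured 10.01 log2 in fetus 376, 10.28 at the median and 10.55 in fetus 327, the same fetuses that held the lowest and highest HSPA8, and r was 0.789 without fetuses 376 and 281. Next in the order were RAB11A (r = 0.803, adjusted p = 0.0251) and RCSD1 (r = 0.798, adjusted p = 0.0178), and at the opposite end stood CLDN14 (r = -0.748, adjusted p = 0.0251), RHBDD3 (r = -0.663, adjusted p = 0.131) and MAP3K5 (r = -0.644, adjusted p = 0.122). DNAJA1, the J-domain partner of HSPA8, had r = 0.502 (permutation p = 0.013, rho = 0.543 with p = 0.00715) but did not pass over all genes (limma adjusted p = 0.278). HSPH1, its exchange factor, had r = 0.211 (permutation p = 0.324, rho = 0.228 with p = 0.283, limma adjusted p = 0.765), and HSP90AA1 had r = 0.235 (permutation p = 0.27, rho = 0.248 with p = 0.243, limma adjusted p = 0.766). With the first component as a covariate, a setting added after the data were seen, limma called CCT4, CCT5 and DNAJA1 (3 of 48, adjusted p for DNAJA1 = 0.0299), and 1.99% of all genes.

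The inducible HSP90 had a wider span (0.36 log2) than the constitutive one (0.16 log2). HSP90AA1 measured 10.41 log2 in fetus 281, 10.70 at the median and 10.97 in fetus 355. HSP90AB1 measured 12.42 log2 in fetus 376, 12.57 at the median and 12.71 in fetus 384. Their correlation was r = 0.355 (permutation p = 0.0889, rho = 0.333 with p = 0.113, limma adjusted p = 0.362). With HSP90AA1 10 of 48 chaperones rose, against 14.8% of all genes, and 2 of 48 fell (HSPA2 and DNAJC5), against 5.49%. The 10 were CCT2, CCT6A, DNAJA1, DNAJB4, DNAJC9, DNAJC10, DNAJC13, DNAJC21, HSPD1 and HSPH1, all of them genes of the low end of the component. CCT2 was at rank 3 of 9709 genes (r = 0.793, rho = 0.797, permutation p = 1e-05 for both, r = 0.768 without fetuses 281 and 355, limma adjusted p = 0.00288), behind the transcription factor BACH1 (r = 0.810) and the chromatin remodeller INO80 (r = 0.80). The genes of lowest r were SLC41A1 (-0.754), GPC2 (-0.751) and PPP1R9B (-0.750). HSPH1 had r = 0.595 with HSP90AA1 (permutation p = 0.00254, rho = 0.615 with p = 0.00162, r = 0.584 without fetuses 281 and 355) and passed over all genes (limma adjusted p = 0.0111). That call was lost with the background controls regressed out (r = 0.445, adjusted p = 0.162) and without fetuses 338 and 313 (r = 0.532, adjusted p = 0.0571). With the first component as a covariate 0 of 48 chaperones were called with HSP90AA1 by limma, against 0% of all genes. HSP90AA1 itself had r = -0.648 with the component, which left this fit less of its variation. The unadjusted limma p was under 0.05 for 3 of 48 chaperones and for 485 of all 9709 genes.

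HSPD1 and HSPE1, the chamber and the lid of the mitochondrial chaperonin, had no relation that these 24 fetuses could show. In the RefSeq annotation of the Sscrofa11.1 assembly they are next to each other with 0 genes between them, and in mammals they share a promoter. HSPD1 measured 9.03 log2 in fetus 307, 9.52 at the median and 10.02 in fetus 338. HSPE1 measured 9.65 log2 in fetus 303, 9.94 at the median and 10.22 in fetus 272. The fetuses with the highest HSPE1 lay in the middle of the range of HSPD1 (r = -0.0775, permutation p = 0.717, rho = -0.102 with p = 0.634, limma adjusted p = 0.777), and without fetuses 338 and 307 r was -0.273. Over all 6 combinations of their probe sets, a set of comparisons added after the data were seen, r lay between -0.332 and 0.215. Both of these ends came from the second probe set of HSPE1, which did not pass the filter (median 3.93 log2). With the passing probe set of HSPE1, r lay between -0.0775 and 0.0422. HSPD1 had 3 probe sets that passed, and the dimmer pair had r = 0.470 and 0.577 with the brightest. Their r with the component was -0.589 and -0.554, against -0.850 for the brightest, so r under -0.8 was found by the brightest only. The call of HSPD1 with HSP90AA1 was lost with the mean of probe sets and with the background controls regressed out.

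HSPD1 instead followed a large set of chaperones outside mitochondria. With limma 17 of 48 rose with it, against 21.3% of all genes, and 9 of 48 fell, against 24%. CCT6A led the chaperones (r = 0.898, rho = 0.901, r = 0.880 without fetuses 338 and 307, limma adjusted p = 1.99e-07) and ranked 38th of 9709 genes. DNAJC9 (r = 0.896), DNAJC10 (r = 0.878), DNAJA1 (r = 0.870), DNAJC13 (r = 0.861) and HSPH1 (r = 0.857) followed. The genes that fell were CCT7, DNAJB2, DNAJC5, DNAJC11, DNAJC16, DNAJC17, DNAJC30, HSPA2 and HSPA12B, of which DNAJC11 and DNAJC30 are mitochondrial. The highest of all genes were the zinc transporter SLC30A9 (r = 0.936), the cap-binding protein NCBP1 (r = 0.936) and the calcium sensor STIM2 (r = 0.934), and the lowest were TYRO3 (-0.858), DUS1L (-0.836) and KDM6B (-0.827). With the first component as a covariate 0 of 48 chaperones were called with HSPD1, against 0.0309% of all genes. HSPD1 itself had r = -0.850 with the component, which left this fit little of its variation. The fit therefore cannot decide whether relations with HSPD1 go beyond the component. The unadjusted limma p was under 0.05 for 12 of 48 chaperones and for 1040 of all 9709 genes. HSPE1 was closest among the chaperonin subunits to CCT5 (r = 0.741, rho = 0.644) and CCT3 (r = 0.699, rho = 0.712), pairs picked after their values were seen and not tested.

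**Figure D4:**
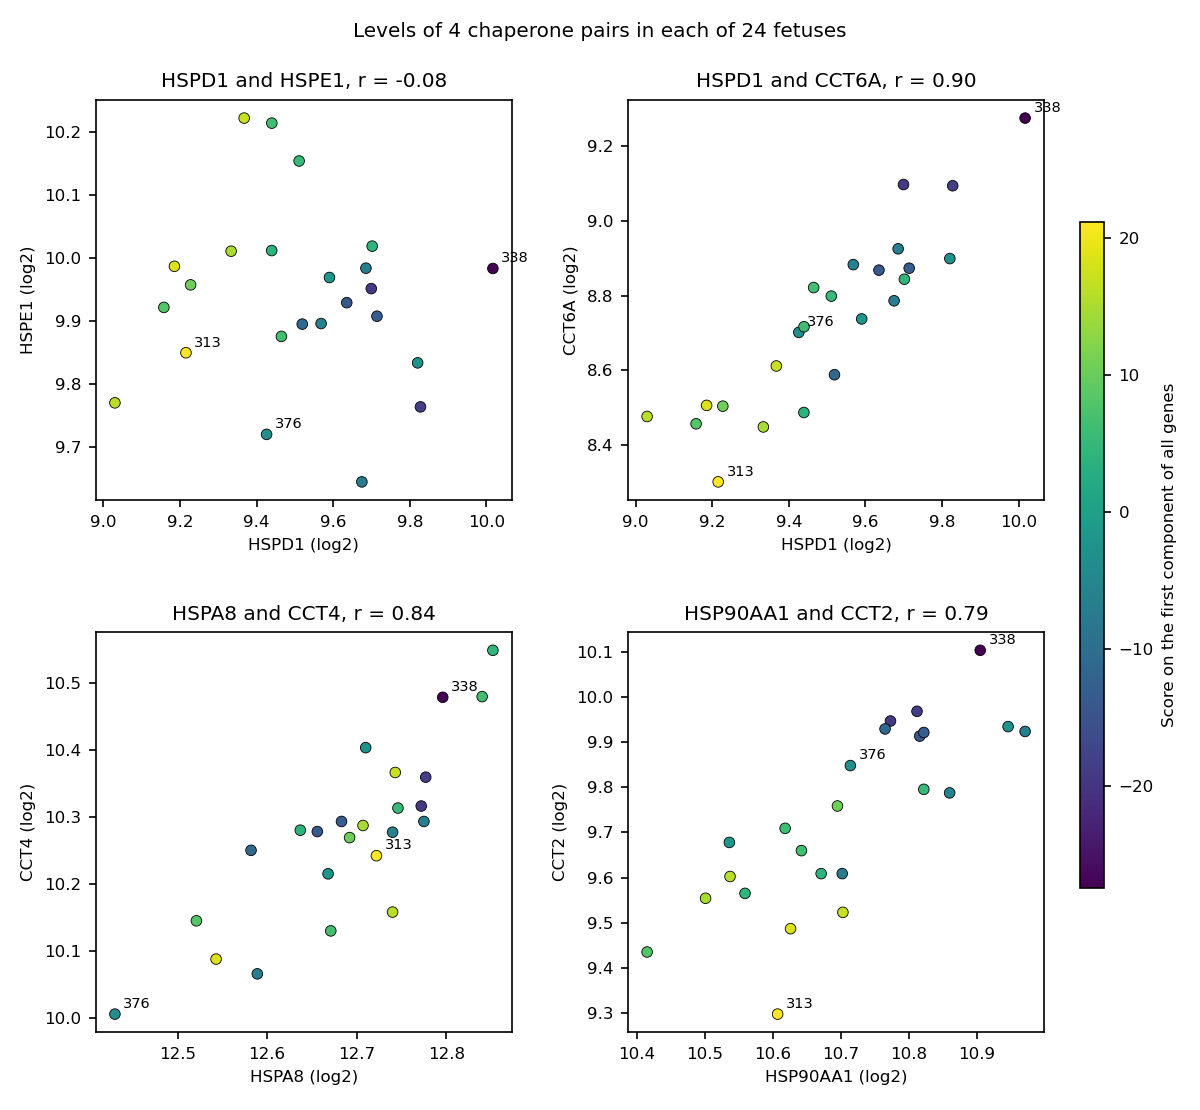
Levels of 4 pairs of chaperones (axes, log2), 1 point per fetus, coloured by the score of the fetus on the first component, with fetuses 338, 313 and 376 named. HSPD1 and HSPE1 form a cloud (r = -0.08), while CCT6A rises with HSPD1 (r = 0.90), CCT4 with HSPA8 (r = 0.84) and CCT2 with HSP90AA1 (r = 0.79).

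The subunits of the cytosolic chaperonin, which stand in equal number in the finished ring, fell into separate patterns at the RNA level. All 8 subunits passed the brightness limit. CCT2 measured 9.30 log2 in fetus 313, 9.73 at the median and 10.10 in fetus 338. CCT6A measured 8.30 log2 in fetus 313, 8.76 at the median and 9.28 in fetus 338. Both were thus lowest and highest in the fetuses at the ends of the component, and r between them was 0.802 (rho = 0.794, r = 0.703 without these fetuses). CCT3 measured 9.98 log2 in fetus 376, 10.38 at the median and 10.68 in fetus 272. CCT5 measured 8.87 log2 in fetus 376, 9.24 at the median and 9.53 in fetus 272. This second pair shared its extremes as well (r = 0.833, rho = 0.710, r = 0.686 without fetuses 376 and 272). CCT7, with 9.35 log2 in fetus 384, 10.29 at the median and 10.81 in fetus 313, lay with CCT3 (r = 0.691) and against CCT2 (r = -0.522). Over the 28 pairs of subunits the median r was 0.0380, against 0.0247 for pairs of all genes, and the range was -0.522 to 0.833. These r values are a description with no test.

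TCP1, the subunit that gave the complex its name, measured 9.78 log2 in fetus 376, 10.03 at the median and 10.26 in fetus 370. In its limma fit 0 of 48 chaperones were called in either direction, as were 0 of all 9709 genes (0%), while 12 chaperones and 14.8% of genes had an unadjusted p under 0.05. The lowest adjusted p of a chaperone was 0.144 (DNAJB5). Of the other subunits, CCT5 had the highest r with TCP1 (0.516, permutation p = 0.0101, rho = 0.464 with p = 0.024, limma adjusted p = 0.23), followed by CCT4 (0.467, permutation p = 0.0217, rho = 0.320 with p = 0.128, limma adjusted p = 0.294) and CCT3 (0.409, permutation p = 0.0469, rho = 0.197 with p = 0.351, limma adjusted p = 0.358). Each r was lower without fetuses 376 and 370: 0.222 for CCT5, 0.346 for CCT4 and 0.0188 for CCT3. CCT6A, CCT7 and CCT2 had r of 0.0156, 0.0858 and -0.130 with TCP1 (permutation p = 0.942, 0.689 and 0.544). CCT8 had r = -0.448 (permutation p = 0.0294, rho = -0.491 with p = 0.0156, limma adjusted p = 0.25), and -0.217 without fetuses 376 and 370. The value for CCT8 depends on its probe set: its 3 passing probe sets were nearly equal in brightness, the others had r = -0.162 and 0.0942 with the brightest, and its span was 0.78 log2 by the brightest and 0.33 log2 by their mean. The highest genes with TCP1 were MOCS3 (r = 0.808), SMARCD1 (0.794) and EIF2B4 (0.770), each at adjusted p = 0.115, and the lowest were MIR99B (-0.585), GRK7 (-0.583) and NAT8L (-0.577).

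**Figure D5:**
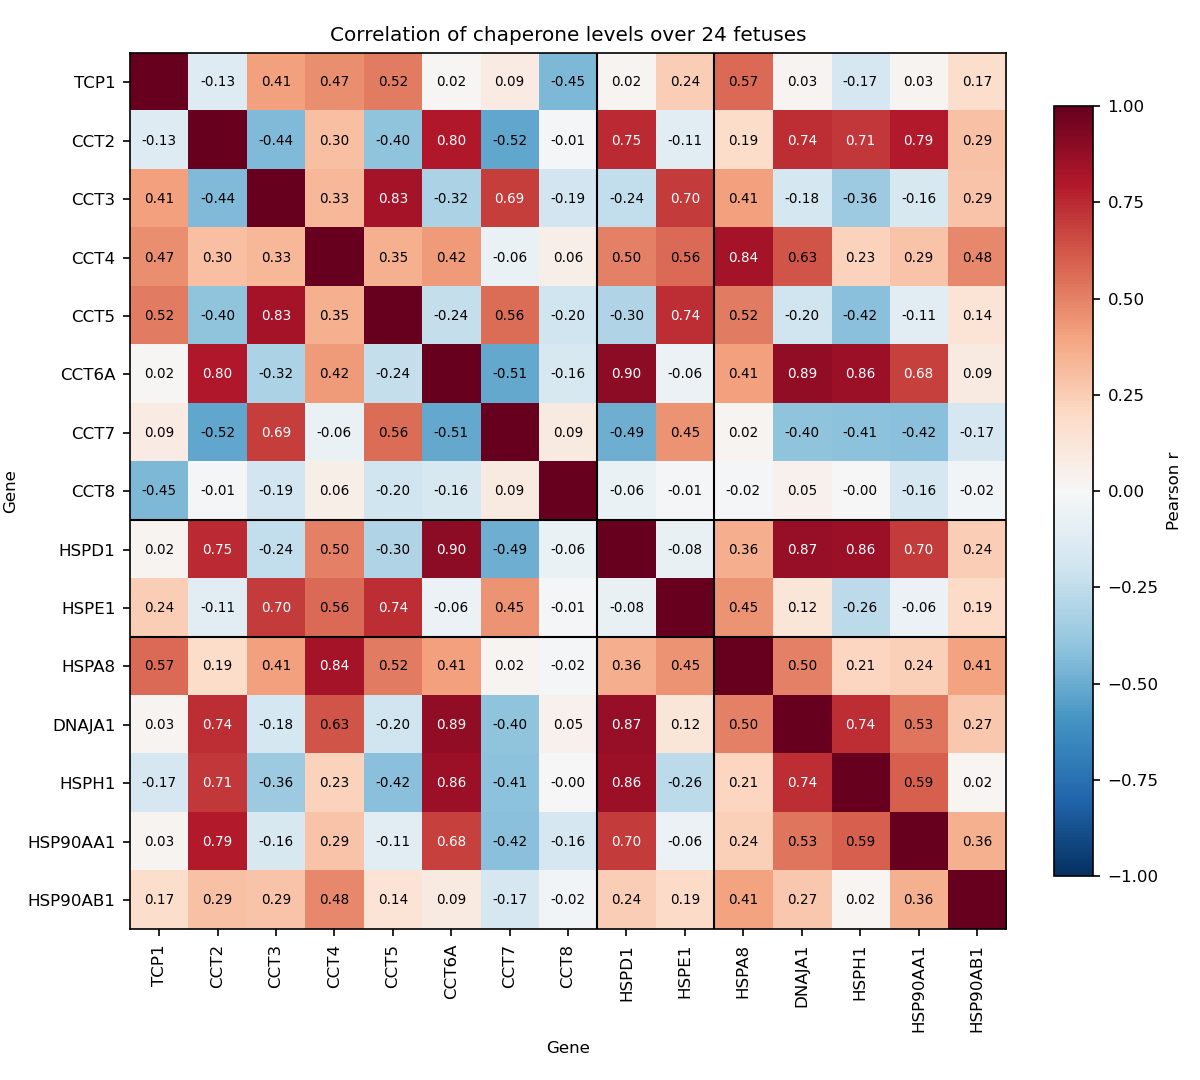
Pearson r over 24 fetuses between the subunits of the cytosolic chaperonin (first block), HSPD1 with HSPE1 (second block) and HSPA8, DNAJA1, HSPH1 and both HSP90 genes (last block); red is positive and blue negative. CCT2 and CCT6A are red with HSPD1, DNAJA1 and HSPH1, while CCT3, CCT5 and CCT7 are blue with them.

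HSPH1, the stress-inducible reference, divided the chaperones as HSPD1 did. With limma 16 of 48 rose with it, against 20.6% of all genes, and 12 of 48 fell, against 31.1%. DNAJC13 led (r = 0.904, rho = 0.909, r = 0.869 without fetuses 338 and 320, limma adjusted p = 1.14e-08), at rank 52 of 9709, and DNAJC16 was lowest (r = -0.803, rho = -0.825, limma adjusted p = 0.000118), at rank 9695. The nearest genes of all were CLINT1 (r = 0.936), BLZF1 (0.932) and OSBPL8 (0.929), known from membrane traffic or lipid transfer, and the opposite ones were TIE1 (-0.873), DUS1L (-0.858) and COBRA1 (-0.840). With the first component as a covariate 0 of 48 chaperones were called with HSPH1, against 0% of all genes. HSPH1 itself had r = -0.907 with the component, which left this fit little of its variation. The fit therefore cannot decide whether relations with HSPH1 go beyond the component. The unadjusted limma p was under 0.05 for 1 of 48 chaperones and for 301 of all 9709 genes.

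The wider set of heat shock factor targets known from human and mouse held genes of both directions. Of the 16 measured, 8 are chaperones of the set above. With HSPH1 5 of 15 rose (DNAJA1, DNAJB4, HSP90AA1, HSPD1 and CHORDC1), beside 20.6% of all genes, and 5 of 15 fell (STIP1, FKBP4, SERPINH1, HSPB1 and CRYAB), beside 31.1%. The falling count is close to that of genes in general. CHORDC1, an HSP90 co-chaperone, measured 7.35 log2 in fetus 313, 8.10 at the median and 8.81 in fetus 338. CRYAB and HSPB1, the small heat shock proteins abundant in muscle, had r of -0.574 (adjusted p = 0.00726) and -0.591 (adjusted p = 0.0083) with HSPH1. STIP1, which carries clients from HSP70 to HSP90, had r = -0.603 (adjusted p = 0.00471). The median correlation among the 16 was 0.174. Of 7 measured immediate early genes, 0 rose and 4 fell with HSPH1 (ATF3, ZFP36, NR4A1 and DUSP1), and ATF3 measured 6.42 log2 in fetus 338, 7.79 at the median and 8.63 in fetus 281.

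More of the co-chaperones and assembly factors fell than rose with HSPH1. Of 39 measured, 19 fell and 7 rose with it, beside the 31.1% and 20.6% of all genes given above. Those that fell include UNC45A (r = -0.787, adjusted p = 5.01e-05), the ubiquitin ligase STUB1 (r = -0.777, adjusted p = 0.000128), and UNC45B and SMYD1, which assemble myosin in zebrafish muscle (r = -0.461 and -0.525, adjusted p = 0.0304 and 0.0223). The widest of the 39 were BAG3, SEC63 and CHORDC1. SEC63, the J-domain partner of the protein channel in the reticulum, measured 7.81 log2 in fetus 307, 8.61 at the median and 9.33 in fetus 320 and rose with HSPH1 (r = 0.875, adjusted p = 3.43e-08). BAG3, the exchange factor of HSP70 in muscle protein quality control, measured 7.84 log2 in fetus 297, 8.54 at the median and 9.72 in fetus 327. BAG3 did not follow the component (r = -0.00428) and was the single gene of the 39 that rose with HSPA8 (r = 0.703, adjusted p = 0.0251).

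Chaperones of the same compartment were called in both directions with HSPH1, as were genes in general (20.6% rising and 31.1% falling). Of the 9 genes of the endoplasmic reticulum that were measured, 4 rose with HSPH1 (DNAJB9, DNAJC3, DNAJC10 and HSPA13) and 2 fell (DNAJB12 and DNAJC16). Of the 7 mitochondrial genes, HSPD1 rose with HSPH1, while DNAJA3, DNAJC11 and DNAJC30 fell. Across all 1176 pairs of the 49 chaperones the median r was 0.0887, and 3.66% of pairs had r over 0.8, against 0.978% of the pairs of all genes. Pairs that share a gene are not independent. Of the 49, 12 had r under -0.8 with the component, against 10.8% of all genes, and such genes also correlate with one another. The part of the component in the share of pairs was not tested.

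Markers of the labelled tissue were present: all 13 of the skeletal muscle markers that had a probe set passed the brightness limit, and their summed level ran from 160.4 to 163.8 log2. With HSPH1, 2 of the 13 rose (NEB and TTN), beside 20.6% of all genes, and 5 fell (MYH7, MYLPF, TNNC2, DES and MYOD1), beside 31.1%. Markers of other cell types followed HSPH1 in part, with no list of them moving as a whole. The summed level of 3 Schwann cell and nerve markers (23.4 to 24.7 log2) had r = 0.836 with the component. Of the 3, NGFR had r = 0.822 with it and fell with HSPH1 (r = -0.665), while SOX10 (r = 0.383) and S100B (r = 0.156) did not pass with HSPH1. Of 5 endothelial markers, EMCN and TEK rose, CDH5 and ESAM fell, KDR did not pass with HSPH1, and PECAM1 was too dim to be used. Of 4 smooth muscle and pericyte genes, RGS5 rose (r = 0.887), CSPG4 (r = -0.685) and ACTG2 (r = -0.652) fell and MYH11 did not pass (adjusted p = 0.0576). Of 5 adipocyte genes ADIPOQ (r = -0.514) and FABP4 (r = -0.441) fell, and of 6 tendon and cartilage genes KERA rose (r = 0.552). The other genes of these lists did not pass with HSPH1. The macrophage genes C1QA and C1QC and the erythroid genes HBB and ALAS2 did not pass either (limma adjusted p from 0.0898 to 0.849). The part of these cell types in the chaperone values was not tested.

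Fetus 376 was the lowest of the 24 for 12 of the 49 chaperones (24.5%), more often than any other fetus, and the highest for 0. Over all genes it was lowest for 15.4%, again more often than any other, and highest for 8.44%. The 12 were HSPA8, HSP90AB1, TCP1, CCT3, CCT4, CCT5, DNAJA2, DNAJB6, DNAJB12, DNAJC1, DNAJC14 and DNAJC18. It lay below the median by 0.40 log2 for CCT3, 0.37 for CCT5, 0.28 for HSPA8 and 0.25 for TCP1. Its score on the component was -3.52, in the middle of the range, and its background control signal was 7.77 log2.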

How the data were processed

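Total RNA of the LDM of 24 fetuses was hybridized to Porcine Snowball arrays, 1 array per fetus. The authors normalized the arrays by the robust multichip average in Expression Console and the deposited table gives each probe set a log2 value in every fetus. This method corrects the background and gives all arrays the same distribution of signals, so that a change in overall brightness is removed and probe sets can shift relative to it. The submitters' processing notes also name GCOS 1.1.1. The detection calls of the study were not used here. No build is stated for the probe sets in the sources used here, and coordinates were left out.

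Of 47845 probe sets, 123 were controls, and the platform annotation gave 1 symbol for 26426. Probe sets above the array median in at least 80% of arrays were kept (21902 probe sets, 9710 genes), and the brightest by median stood for its gene. Of the chaperones, 29 had several probe sets, and 8 were represented by a probe set of the type that can match more than 1 transcript, HSPD1 and CCT5 among them. No 2 arrays held identical values, and arrays correlated at 0.946 to 0.980. Precision is limited by there being 24 arrays.

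Fits were made with limma 3.58.1 in R 4.3.3 (lmFit and eBayes, 2-sided, Benjamini-Hochberg over all genes tested, threshold 0.05), on the mean signal of 39 background controls with 13 or more G or C bases, and on each of 5 reference genes. For 13 of 20 listed pairs both genes were measured, and 100000 permutations gave 2-sided p-values for Pearson's r and for Spearman's rho. Each r was also computed after leaving out the 2 fetuses most distant from the first gene's median. No measure fell into separate clusters. The procedure was tested on simulated data for the background control fit. Alternatives were the mean of a gene's probe sets, no filter, a filter requiring all arrays, arrays centred on their median, background controls regressed out, fetuses 338 and 313 left out, and updated symbols. The first component as a covariate and all probe set combinations of HSPD1 and HSPE1 were added after the data were seen. Named in full were, in each role class, the 3 genes of largest and the 1 of smallest span, the reference genes, all genes of the pairs, and the 3 genes of highest and of lowest r with each reference gene. The chaperones, lists, pairs and tests were chosen with earlier results of these data known. The study lists weight group, sex and dam for each fetus. Groups were taken from the labels of the deposited samples alone, which give none of the weight groups, so all fetuses were left unassigned and the comparison by weight group, sex and dam was not made. Sequences were not used here.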

Additional observations from a re-analysis of the deposited data

How the results depend on the processing

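The median span of the chaperones and the counts not named here stayed within 1.5 times their value under the alternatives that gave one. With the background controls regressed out, the chaperones with a span of 1.5-fold or more numbered 3 (from 12) and those with r under -0.8 with the first component 4 (from 12), and the shares of all genes fell to 9.54% and 3.82%. Those with r over 0.8 numbered 2, against 2.79% of all genes. They numbered 1 with no filter (1.43% of all genes), 1 with the background controls regressed out (4.48%) and 1 without fetuses 338 and 313 (2.29%). With arrays centred they numbered 0 (1.74%). In the fit to the background controls, 11 fell and 0 rose without fetuses 338 and 313 (from 17 and 5). That fit has no value with these controls regressed out. Of the 9 that fell with HSPD1, 4 did with the controls regressed out and 4 without fetuses 338 and 313. Those that fell with HSPH1 (12) numbered 7 without those fetuses, of which 6 were among the 12. With HSP90AA1, those that fell (2) numbered 1 with no filter and 1 with the stricter filter, and 0 with arrays centred, with the controls regressed out or without those fetuses, and those that rose (10) numbered 3 with the controls regressed out. With TCP1, 4 rose with arrays centred (from 0). For the fits above, the shares of all genes called under these alternatives are not given here. These counts are therefore not set against genes in general. With the first component as a covariate, 0 rose or fell with HSPD1, HSP90AA1 or HSPH1, against 0.0309%, 0% and 0% of all genes called. These reference genes had r of -0.850, -0.648 and -0.907 with the component, which left these fits less of their variation. With HSPA8 3 rose (from 1), against 1.99% of all genes called. Among pairs, r changed sign for HSPA8 with HSPH1 (-0.0243, controls regressed out), TCP1 with CCT2 (0.00998, without fetuses 338 and 313) and TCP1 with CCT8 (0.314, without those fetuses, where another probe set of CCT8 was the brightest). The cause of the other changes was not tested. No paired analysis was made, because groups were taken from the labels alone, which give none.

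Spreads over 24 fetuses that share litters were not separated here into weight, sex and litter, and 1 array per fetus leaves no technical replicate. Of 20 further probe sets of chaperones that passed, in 17 genes, 9 had r over 0.5 with the brightest and 4 were below 0, with a median of 0.477.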
